A study of Mus musculus with 18 samples.

Results

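The comparison is of CD4+ T cells sorted as CD44low from mice of the LAT KO and the Y136F genotype. The KO genotype is meant to lose LAT, and the Y136F genotype to keep only LAT with the Y136F change. The question is whether the cells moved apart between 1 and 4 weeks of tamoxifen. For each gene the KO minus Y136F difference at 1 week was subtracted from the KO minus Y136F difference at 4 weeks, on the log2 scale, and the result is called the difference of differences here. All named genes on autosomes that were measured belong to it, which gave 16385 of the 31522 genes and unnamed sequences tested. A positive value means that the 4-week KO cells stood higher above, or less far below, the Y136F cells than the 1-week KO cells did. Since the value equals the KO change over time minus the Y136F change over time, both changes are given beside it.

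LAT is the membrane adaptor of the T cell receptor (TCR): once phosphorylated it gathers the enzymes and adaptors that start calcium, Ras and actin signalling. The tyrosine changed in Y136F is the one that binds phospholipase C-gamma 1, so the mutant protein keeps its other docking sites. Mice that carry this change in the germ line are known for a lymphoproliferative disease of CD4+ T cells that make type 2 cytokines.

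RNA of sorted splenic T cells (CD4+, CD44low) from C57BL/6 mice was measured on 1-colour Agilent arrays, with 3 arrays in each group and, by the series text, 3 mice per genotype. KO mice were ERCre+ LAT f/-, so a floxed allele stood over a null allele. Y136F animals were ERCre+ LAT f/m and had the mutant allele in place of the null. Each genotype was given tamoxifen for 1 or 4 weeks. ERCre is an inducible recombinase, so the floxed allele was present until tamoxifen was given, and the share of cells in which it was removed was not measured here. The 6 WT arrays were LAT f/-, ERCre- by the titles and Cre-positive by the series text. In the test of the difference of differences they entered only the estimate of the spread. They also counted in the background filter and the choice of probe, and their own change over time is given below. In bulk RNA, more cells of a type and more RNA per cell cannot be told apart.

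All 6 Y136F mice were labelled female, the 1-week KO mice were 2 females and 1 male, and the 3 KO mice of 4 weeks were male. By the labels, sex and genotype therefore cannot be told apart at 4 weeks. The array labelled KO 1 week replicate 1, female, had a Ddx3y signal of -0.23 and an Xist signal of -9.30, and the array labelled KO 4 weeks replicate 2, male, had -8.92 and 0.21. These are the male and the female pattern respectively, the reverse of both labels. B cell genes set the same arrays apart: the mean deviation of 11 B cell genes from their average over the arrays was 0.81 in KO 1 week replicate 1 against -0.72 and -0.58 in the other 1-week KO arrays, and -0.89 in KO 4 weeks replicate 2 against 0.62 and 0.51 in the other 4-week KO arrays. Groups follow the labels throughout, and results are also given without both arrays. In KO 1 week replicate 3, 7888 of 43379 spots (18.18%) were marked as outliers and left out, against 187 to 952 in every other array.

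The CD4 T cell markers fitted the label: all 12 were well above background on all 12 arrays, between the 83.7th and the 99.3rd percentile of expression. Markers of other cells were measured too. The 14 B cell markers were well above background on all 12 arrays, from the 20th (Ebf1) to the 90.3rd percentile (H2-Ab1). H2-Ab1, Cd79b (87.9) and Cd74 (84.6) thus lay within the range of the CD4 T cell markers. So did Tyrobp (88.3), a marker of myeloid and NK cells, and the erythroid marker Hbb-bt (88.9). All other markers of other cells lay below that range. Their list medians stand with the results below.

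Of the 16385 autosomal genes, 220 passed the limma test (Benjamini-Hochberg adjusted p under 0.05), which is 1.34% of the genes tested. The difference of differences was positive in 66 of them (0.403% of all genes) and negative in 154 (0.94%). At an unadjusted p under 0.05 there were 2004 genes (12.2%). The median value was 1.31 among the positive genes, with a range from 0.80 to 6.90, and -1.87 among the negative genes, with a range from -5.47 to -0.95. Over all autosomal genes the median was -0.03 and the median standard error (SE) 0.31. Values of at least 2-fold were found for 55 of the positive and 150 of the negative genes, and values of at least 8-fold for 1 and 28.

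The value is made up of 2 changes over time. In Y136F cells 1406 genes (8.58%) changed between 1 and 4 weeks, 765 upward (4.67%) and 641 downward (3.91%). In KO cells no gene passed, with 79 genes (0.482%) at an unadjusted p under 0.05. That is less than the share of 0.05 that this threshold passes when nothing changes. Without both arrays that went against their sex label 1454 genes reached it. The lack of calls therefore does not show that KO cells were unchanged. The median size of the change over all genes was 0.30 in Y136F cells and 0.11 in KO cells. The KO figure was 0.179 without KO 1 week replicate 1 and 0.205 without both arrays that went against their sex label. It was 0.171 with array weights and 0.211 with sex as labelled as a term. For the 66 positive genes the median change was -1.25 in Y136F cells (range -6.95 to -0.63) and 0.06 in KO cells (range -0.19 to 0.42). For the 154 negative genes it was 1.68 in Y136F cells (range 0.81 to 5.18) and -0.14 in KO cells (range -1.17 to 0.16). Without both arrays that went against their sex label, the median KO change was -0.10 for the positive genes. For the negative genes it was then 0.25, the direction of the Y136F change. These values share arrays with the difference of differences and are given as its parts, not as separate evidence.

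**Figure D1:**
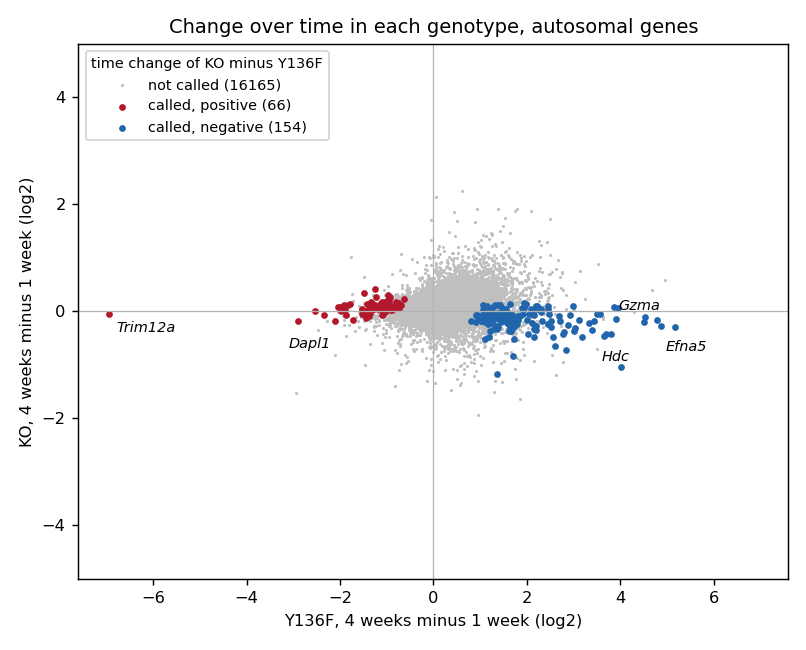
Each point is an autosomal gene, with its log2 change from 1 to 4 weeks in Y136F cells on the x axis and in KO cells on the y axis. The 66 positive genes (red) lie at the left and the 154 negative genes (blue) at the right. With all arrays used, both lie near 0 on the y axis. Trim12a is the red point at -6.95.

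The KO minus Y136F difference was also read at each time point. Over all autosomal genes its median size was 0.191 at 1 week and 0.175 at 4 weeks, while the calls lay at 4 weeks. KO minus Y136F at 1 week gave no gene past the limma threshold, with 1060 (6.47%) at an unadjusted p under 0.05, and at 4 weeks it gave 661 genes (4.03%), 199 higher (1.21%) and 462 lower (2.82%) in KO cells. For the 66 positive genes the median KO minus Y136F difference was -0.29 at 1 week and 1.02 at 4 weeks. For the 154 negative genes it was 0.32 at 1 week and -1.62 at 4 weeks. In WT cells the median change from 1 to 4 weeks was -0.23 for the positive and 0.19 for the negative genes. In 65 of the positive and 149 of the negative genes the 3 Y136F arrays of 4 weeks lay wholly outside the other 9 mutant arrays. The genes were called on these same arrays, so this largely follows from the call and is no separate evidence. Over all autosomal genes the share was 10.2% (5.57% with the 3 arrays above and 4.65% below).

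Without KO 1 week replicate 1 and KO 4 weeks replicate 2, 86 genes passed, 34 positive and 52 negative. Of these, 80 were among the 220, and all 220 kept their sign. Their median value was then 1.14 for the positive and -1.42 for the negative genes. The count also moved by more than 1.5 times with slide as a fixed term (49 genes, 20 positive and 29 negative), with array weights (455), without the intensity trend (137), without KO 1 week replicate 2 (421), without KO 4 weeks replicate 2 (86), without Y136F 1 week replicate 1 (93) or 3 (110), and without Y136F 4 weeks replicate 1 (125) or 2 (126). The negative count alone fell to 93 without KO 1 week replicate 1 and to 97 without Y136F 4 weeks replicate 3.

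Trim12a, a TRIM family gene of the antiviral TRIM5-like group, had the highest positive value. Its scaled log2 signal was 3.08, 3.70 and 3.15 in KO cells at 1 week, 3.17, 3.59 and 3.03 in KO cells at 4 weeks, and 3.78, 3.68 and 3.53 in Y136F cells at 1 week. It was -2.88, -3.03 and -3.93 in Y136F cells at 4 weeks. The 3 last arrays lay far below the other 9, which overlapped. The difference of differences was 6.90 ± 0.33 (SE, limma, adjusted p = 2.19e-09; n = 3 arrays per group), and Trim12a fell by 6.95 on the log2 scale in Y136F cells. Another probe of the gene gave 2.31. Trim12a lies in a cluster of near-identical genes, so its probes may read several of them: next to it Trim12c was called at 1.57 (adjusted p = 0.00906), and Trim30b (1.42), Trim30d (1.04), Trim30a (1.02) and Trim34a (0.77) did not pass. The gene is on the same chromosome as Lat, with 228 tested genes between them. None of the 50 tested neighbours of Lat was called, and 18 of the 1495 tested genes of that chromosome were (1.2%).

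Genes of the naive state were among the positive genes. This list and those below were chosen with earlier results of these data known. Their shares of called genes are therefore descriptions and no separate evidence. Of 27 naive-programme genes tested, 5 were called positive (against 0.403% of all genes), none negative, and 25 had a positive value, with a median of 0.69. In Y136F cells 13 of the 27 fell over time (against 3.91% of all genes), and in KO cells the median change was 0.08. In WT cells it was -0.11. Dapl1, a gene known for high expression in naive T cells, had signals of 2.51, 3.43 and 3.22 in KO cells at 1 week and 2.57, 3.25 and 2.78 at 4 weeks. In Y136F cells it had 3.34, 3.61 and 3.42 at 1 week and 0.94, 0.38 and 0.38 at 4 weeks. The 4-week Y136F arrays alone were low and overlapped with no other group. Its value was 2.71 ± 0.32 (SE, adjusted p = 6.88e-04).

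Ccr7, the chemokine receptor that guides T cells into lymph nodes, showed 2.81, 3.18 and 2.88 in KO cells at 1 week and 2.77, 3.32 and 2.76 at 4 weeks. Y136F cells gave 3.33, 3.18 and 3.45 at 1 week and 1.76, 1.88 and 1.88 at 4 weeks. Again the 4-week Y136F arrays were below all the others. Its difference of differences was 1.47 ± 0.22 (SE, adjusted p = 0.00309). The other called genes of the list were Igfbp4 (2.08), which binds insulin-like growth factors, Actn1 (1.5), an actin cross-linking protein, and Il6ra (1.1), the interleukin-6 receptor. Lef1, a transcription factor of naive T cells (1.13, adjusted p = 0.0609), did not pass. Il7r, the interleukin-7 receptor, and Klf2, a transcription factor of naive T cell trafficking, were the 2 members below 0, at -0.12 and -0.09.

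Several positive genes lay outside the lists. Amigo2, a cell adhesion protein, had a value of 2.53 ± 0.45 (SE, adjusted p = 0.0095). Adh1, an alcohol dehydrogenase, had 2.27, Slc16a5, of the monocarboxylate transporter family, 2.13, Atp1b1, a subunit of the sodium pump, 2.04, and Afp, alpha-fetoprotein, 1.99. Sesn1, a p53 target that restrains mTORC1, had 1.94, Acvrl1, a receptor of the TGF-beta family, 1.93, and Ly6c1, a surface antigen of T cell subsets, 1.93. These 8 genes were called and their 4-week Y136F arrays were the lowest of the 12. Rapgef4, a cAMP-activated exchange factor for Rap, was called at 1.93, but its dimmer probe gave -1.60.

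Effector genes were among the negative genes. Of 26 cytotoxic and effector genes, 9 were called negative (against 0.94% of all genes) and 1 positive, with a median of -1.66. In Y136F cells 18 of the 26 rose (against 4.67% of all genes) and 1 fell. The median change over time was 1.69 in Y136F cells and 0.40 in WT cells. Gzma, the cytotoxic granule protease granzyme A, had signals of 0.48, -2.36 and -2.78 in KO cells at 1 week and -1.61, -2.28 and -1.60 at 4 weeks. In Y136F cells it had -2.68, -1.29 and -2.87 at 1 week and 2.34, 2.76 and 2.65 at 4 weeks. All 3 Y136F arrays of 4 weeks were above the other 9, and the highest of those 9 was KO 1 week replicate 1, the array that went against its sex label. The value was -5.14 ± 0.87 (SE, adjusted p = 0.00666), and -3.90 without both such arrays (adjusted p = 0.00642).

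Ccl1, the chemokine ligand of Ccr8, had a value of -4.93 ± 0.70 (SE, adjusted p = 0.00239). Its 4-week Y136F arrays gave 0.92, 1.63 and 1.35, against -3.46, -3.26 and -3.71 at 1 week. KO arrays gave -0.41, -3.17 and -2.81 at 1 week and -2.11, -3.10 and -1.65 at 4 weeks, so no array of another group reached the 4-week Y136F level. Gzmb, granzyme B (-3.54), Ccr2, a receptor for inflammatory chemokines (-3.38), and Ccl4, an inflammatory chemokine (-2.81), were called as well. So were the transcription factors Eomes (-2.35) and Bhlhe40 (-2.32) and the death ligand Fasl (-1.29). The positive member was Prf1, the pore-forming protein perforin, at 0.92 (adjusted p = 0.0197). Without the 2 arrays that went against their sex label, 6 members were called negative and 1 positive.

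**Figure D2:**
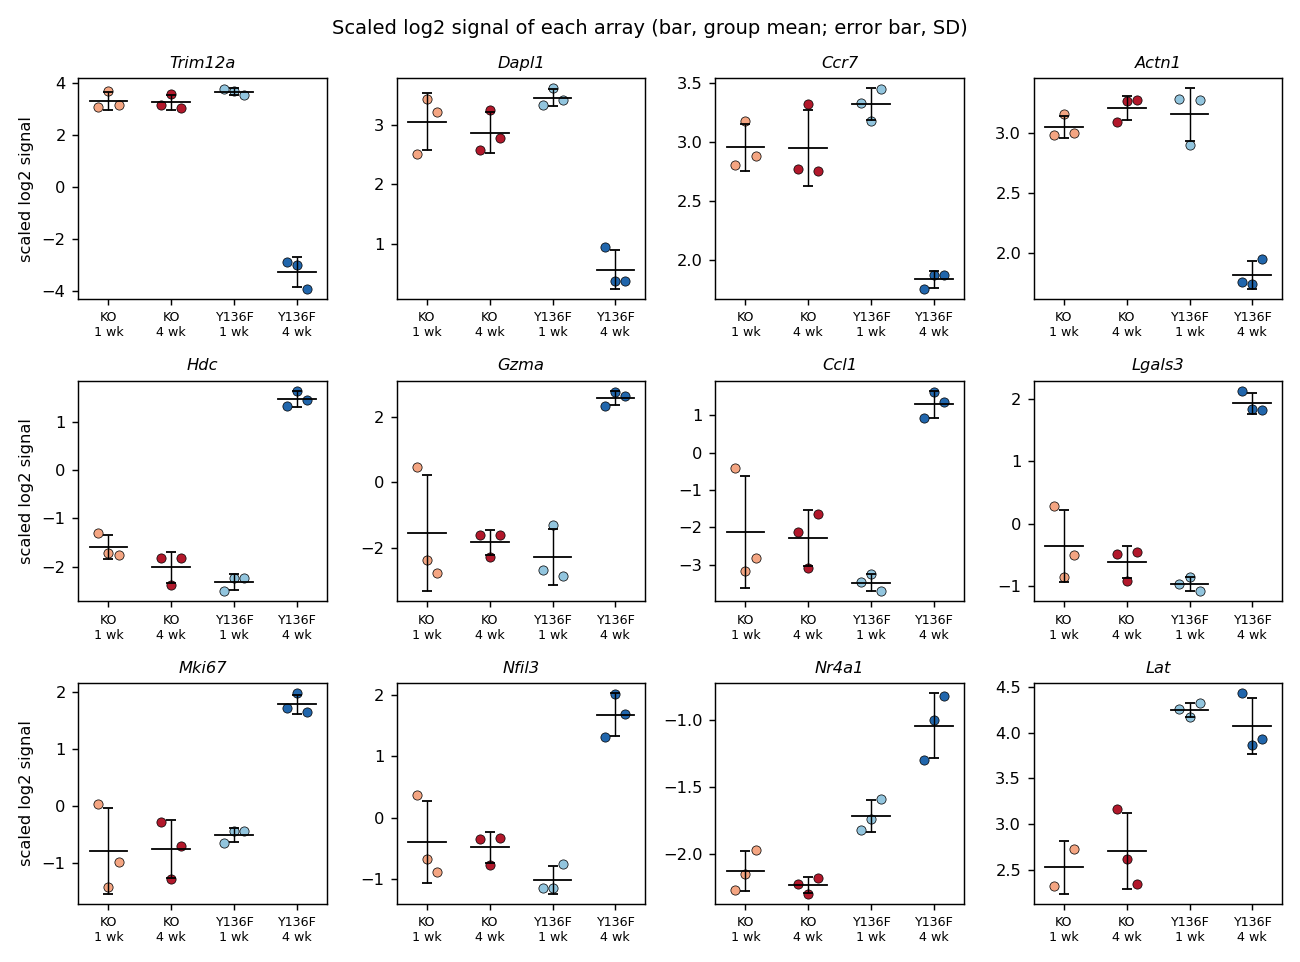
Scaled log2 signal of 12 genes in each of the 12 KO and Y136F arrays; points are arrays, horizontal bars group means and error bars the SD (n = 3, or n = 2 for Lat in KO cells at 1 week). In the panels of Trim12a, Dapl1, Ccr7 and Actn1 the 4-week Y136F arrays are the lowest, in those from Hdc to Nfil3 they are the highest, and in the Lat panel they lie beside the 1-week Y136F arrays.

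Some activation and memory genes were negative too. Of 21 tested, 4 were called negative (against 0.94% of all genes) and none positive, with a median of -0.90, and in Y136F cells 12 rose (against 4.67%). Lgals3, the sugar-binding protein galectin-3, had signals of 0.28, -0.85 and -0.50 in KO cells at 1 week and -0.48, -0.91 and -0.45 at 4 weeks. In Y136F cells it had -0.96, -0.85 and -1.08 at 1 week and 2.13, 1.84 and 1.82 at 4 weeks. The 4-week Y136F arrays stood above all others, and the value was -3.15 ± 0.33 (SE, adjusted p = 1.51e-04). The other called members were Itgb1, the integrin beta-1 chain (-2.11), and the calcium-dependent membrane-binding proteins Anxa1 (-1.98) and Anxa2 (-3.34, with no value for KO 1 week replicate 3, whose spot was left out). Cd44, whose protein was used to sort the cells as low, had -0.74 (adjusted p = 0.465). Without the 2 arrays that went against their sex label 2 of the 4 stayed called, Lgals3 and Itgb1.

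Among 22 Th2 genes, 6 were called negative (against 0.94% of all genes), with a list median of -1.27, and 12 rose in Y136F cells (against 4.67%). The median change over time was 1.19 in Y136F cells and 0.36 in WT cells. Gata3, the defining transcription factor of Th2 cells, had -1.51 (adjusted p = 0.0106), and Maf, a factor that activates Il4, had -1.72 (adjusted p = 0.0225). Nfil3, a basic leucine zipper factor, had signals of 0.36, -0.68 and -0.89 in KO cells at 1 week and -0.35, -0.77 and -0.33 at 4 weeks. In Y136F cells it had -1.15, -1.14 and -0.76 at 1 week and 1.31, 2.01 and 1.69 at 4 weeks, so the last group was above every other array. Its value was -2.77 ± 0.38 (SE, adjusted p = 0.0019). Penk, which encodes the enkephalin precursor (-3.78), Epas1, a hypoxia-inducible factor (-2.89), and Il1rl1, the receptor for interleukin-33 (-3.00, with no value for KO 1 week replicate 3), were called too. The cytokine genes Il4 (-1.73, adjusted p = 0.115), Il5 (-1.97, adjusted p = 0.264) and Il13 (-0.45, adjusted p = 0.709) did not pass. Without the 2 arrays that went against their sex label 4 members were called.

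Hdc, the enzyme that makes histamine from histidine, had the smallest p among the negative genes. Its signals were -1.31, -1.71 and -1.75 in KO cells at 1 week and -1.82, -2.39 and -1.83 at 4 weeks. In Y136F cells they were -2.51, -2.23 and -2.23 at 1 week and 1.33, 1.64 and 1.45 at 4 weeks. The 4-week Y136F arrays were separated from the other 9, which lay close together. The value was -4.22 ± 0.31 (SE, adjusted p = 1.55e-06), and -3.89 without the 2 arrays that went against their sex label. Hrh4, a histamine receptor of blood cells, had -4.71 ± 0.63 (SE, adjusted p = 0.00134). All 11 tested genes of the histamine and mast cell list had a negative value, with a median of -1.95, and those 2 were called (against 0.94% of all genes). The median change of the list over time was 2.02 in Y136F cells. It was 0.855 in WT cells, where all 11 were above 0 and none was called. The mast cell protease genes Cpa3 (-4.27, adjusted p = 0.0874), Mcpt4 (-2.21, adjusted p = 0.0839) and Cma1 (-1.95, adjusted p = 0.0929) did not pass, and Fcer1a, a chain of the IgE receptor, had -0.52 (adjusted p = 0.716).

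Further large negative values belonged to Efna5, the guidance ligand ephrin-A5, at -5.47 ± 0.93 (SE, adjusted p = 0.00677; -5.67 by another probe), and to Slpi, a secreted protease inhibitor, at -4.64. A dimmer probe of Slpi gave -0.02, so that value rests on 1 probe. Efna5 spread widely within KO cells, from -3.65 to -0.27 at 1 week and from -4.07 to -2.02 at 4 weeks, against 0.84, 1.46 and 1.40 in Y136F cells at 4 weeks. Ccn4, a secreted matrix protein (-4.12), Akr1c18, a progesterone-inactivating enzyme (-4.10), and Csf1, the macrophage growth factor (-3.90), were also called. Osbpl6, of the oxysterol-binding protein family, was called, but it was not well above background on any 1-week Y136F array. Its 4-week Y136F signal was at least 16-fold higher than that group's background limit (adjusted p = 0.00178 for the change in Y136F cells).

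Cell cycle genes formed a broad negative group. All 33 mitosis and G2/M genes had a negative value, with a median of -1.35, and 11 were called (against 0.94% of all genes). In Y136F cells 29 of the 33 rose (against 4.67%), and in KO cells the median change was -0.02. It was 1.24 in Y136F cells and 0.29 in WT cells. Without both arrays that went against their sex label, the median KO change was 0.30 (32 genes). Mki67, the proliferation antigen Ki-67, had signals of 0.04, -1.42 and -0.98 in KO cells at 1 week and -0.28, -1.28 and -0.69 at 4 weeks. In Y136F cells it had -0.65, -0.44 and -0.44 at 1 week and 1.72, 1.98 and 1.66 at 4 weeks. The 4-week Y136F arrays were highest, and KO 1 week replicate 1 was next. The value was -2.26 ± 0.42 (SE, adjusted p = 0.0115), and another probe gave -2.22.

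Ttk, a kinase of the spindle checkpoint (-1.92), Cenpf, a kinetochore protein (-1.83), Ccna2, cyclin A2 (-1.70), Foxm1, the transcription factor of the G2/M programme (-1.63), and Aurka, a centrosomal kinase (-1.47), were among the called members. Of 32 DNA replication and S phase genes 6 were called negative (against 0.94% of all genes) and 31 had a negative value, with a median of -0.99. They were E2f1, a factor that turns on S phase genes (-1.68), Tk1, thymidine kinase (-1.56), Uhrf1, which maintains DNA methylation (-1.48), Ccne2, cyclin E2 (-1.40), Mcm10 (-1.35) and Mcm5 (-1.05), both of the replication machinery. Among 19 G1 genes Cdkn1a, the cyclin-dependent kinase inhibitor p21 (-1.48), and Cdk6, a G1 kinase (-1.39), were called. Without the 2 arrays that went against their sex label, 2 mitosis genes (Mki67 and Cenpf), no S phase gene and 1 G1 gene were called, with medians of -0.99, -0.74 and -0.31. Of 28 alternatives E2f1 was called in 9, Ttk and Ccna2 in 12 each and Tk1 in 14. Cenpf was called in 24, Uhrf1 and Ccne2 in 25 each, Mki67 and Cdkn1a in 26 each and Cdk6 in 27. A dimmer probe of E2f1 gave -0.625.

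The promoters of the 3 called mitosis genes of largest size that have an entry are shown because many genes of this group are known to be controlled through CCAAT boxes and a nearby cell cycle homology region. The sequences are the 200 bases before the start site from RefSeq (GRCm38.p6), 5′ to 3′ on the gene's strand, with CCAAT (either strand) and TTTGAA (either strand, the letters of the cell cycle homology region) in capitals. Neither motif contains the other. They lie at chr7:135716380-135716579 (minus strand) for Mki67, chr9:83834489-83834688 (plus strand) for Ttk and chr1:189688087-189688286 (minus strand) for Cenpf.
Mki67: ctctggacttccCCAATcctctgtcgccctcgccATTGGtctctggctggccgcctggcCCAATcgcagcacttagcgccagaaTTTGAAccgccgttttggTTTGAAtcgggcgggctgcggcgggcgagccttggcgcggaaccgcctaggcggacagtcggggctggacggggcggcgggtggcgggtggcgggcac
Ttk: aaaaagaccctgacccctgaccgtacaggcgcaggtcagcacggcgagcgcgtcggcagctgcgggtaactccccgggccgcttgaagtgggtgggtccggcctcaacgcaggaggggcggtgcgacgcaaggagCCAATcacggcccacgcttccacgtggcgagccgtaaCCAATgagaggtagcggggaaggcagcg
Cenpf: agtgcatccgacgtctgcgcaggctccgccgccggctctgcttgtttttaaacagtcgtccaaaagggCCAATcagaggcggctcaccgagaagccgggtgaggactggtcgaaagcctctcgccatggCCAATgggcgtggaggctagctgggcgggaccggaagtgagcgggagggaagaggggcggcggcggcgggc
Mki67 held 3 CCAAT and 2 TTTGAA matches in this window, and Ttk and Cenpf 2 CCAAT matches each. In the 250 bases before the start, CCAAT was found in 21 of the 26 mitosis genes with an entry (80.8%) and in 39.4% of the 13071 tested autosomal genes with one. TTTGAA was found in 10 of the 26 (38.5%) and in 15.4% of all. Among the negative genes with an entry, 53 of 113 (46.9%) held CCAAT and 23 (20.4%) TTTGAA. A match describes the letters and shows neither binding nor a cause.

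Interferon response genes had mostly positive values without a call. Of 42 tested, none passed the limma threshold for the difference of differences, 18 had an unadjusted p under 0.05 (against 12.2% of all genes), and 37 had a positive value, with a median of 0.62. In Y136F cells 20 of the 42 fell over time (against 3.91% of all genes) and none rose, with a median of -0.66, and in KO cells the median was -0.09. In WT cells the median was -0.29, with 34 of the 42 below 0 and none called. Oas2, an enzyme that senses double-stranded RNA, had the largest value (2.09 ± 0.56, SE, adjusted p = 0.0813), followed by Oasl1 (1.55, adjusted p = 0.146). Ifit2, which binds viral RNA, had 1.41 ± 0.35 (SE, adjusted p = 0.0532). Its signals were 1.98, 2.52 and 2.05 in KO cells at 1 week, 1.99, 2.57 and 1.82 in KO cells at 4 weeks, 2.52, 3.04 and 2.12 in Y136F cells at 1 week, and 0.93, 0.97 and 1.37 in Y136F cells at 4 weeks. The 4-week Y136F arrays were the lowest and did not overlap with the others.

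The promoters of 2 genes of this list are shown, those of the members with the largest positive values whose promoter holds the core of the interferon-stimulated response element (GAAA, a gap of 2 bases and GAAA again, on either strand), in capitals. Ifit1 (chr19:34640689-34640888, plus strand) had a difference of differences of 1.44 (adjusted p = 0.294) and Rsad2, the antiviral enzyme viperin (chr12:26456453-26456652, minus strand), 1.31 (adjusted p = 0.318), so neither passed.
Ifit1: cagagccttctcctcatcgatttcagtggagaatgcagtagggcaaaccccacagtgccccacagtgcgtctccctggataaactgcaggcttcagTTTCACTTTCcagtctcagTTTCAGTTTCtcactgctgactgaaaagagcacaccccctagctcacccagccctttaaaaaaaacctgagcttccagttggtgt
Rsad2: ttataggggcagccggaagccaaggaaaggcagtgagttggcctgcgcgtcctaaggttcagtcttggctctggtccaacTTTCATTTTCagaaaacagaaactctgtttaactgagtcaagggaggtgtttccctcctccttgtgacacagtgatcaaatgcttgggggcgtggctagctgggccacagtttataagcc
Ifit1 held 2 matches and Rsad2 1. The core was found in 11 of the 31 interferon genes with an entry (35.5%) and in 3.5% of all 13071 genes. Among the positive genes with an entry, 2 of 54 held it (3.7%).

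**Figure D3:**
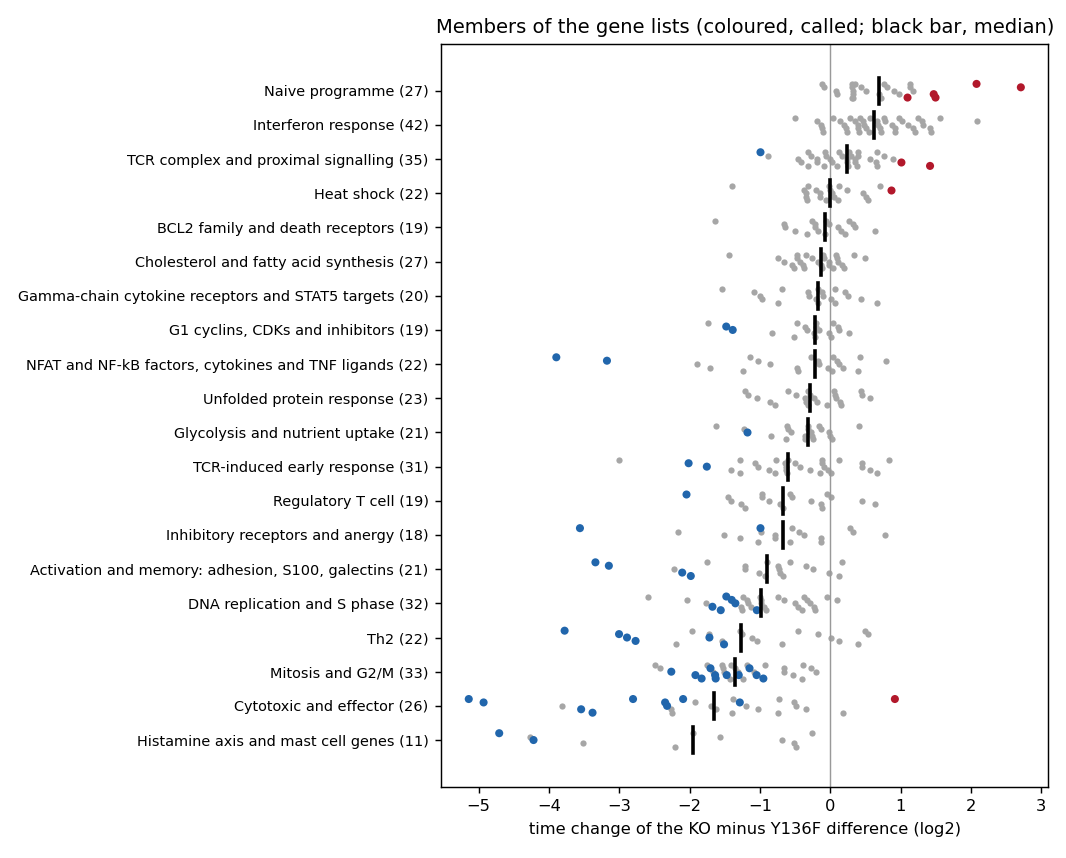
Difference of differences (log2, x axis) of every tested autosomal member of 20 gene lists, ordered by the list median (black bar); the number tested is in brackets and called genes are coloured. The mitosis members are all below 0, and 37 of the 42 interferon members are above 0 with none called.

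Some TCR signalling genes were called, 6.45% of the early response list and 8.57% of the proximal signalling list, against 1.34% of all genes. Of 31 early response genes, which TCR ligation switches on, 2 were called negative (against 0.94% of all genes), Jun, an AP-1 transcription factor (-2.02), and the nuclear receptor Nr4a2 (-1.76), with a list median of -0.61. In Y136F cells 9 rose (against 4.67%). Jun was called in 6 and Nr4a2 in 21 of 28 alternatives, and without both arrays that went against their sex label neither was (adjusted p = 0.203 and 0.058, limma), with a list median of -0.32. Nr4a1, the nuclear receptor Nur77, had signals of -2.27, -2.15 and -1.97 in KO cells at 1 week and -2.23, -2.30 and -2.18 at 4 weeks. In Y136F cells they were -1.82, -1.74 and -1.59 at 1 week and -1.30, -1 and -0.82 at 4 weeks. The Y136F groups did not overlap with each other or with KO cells, yet the difference of differences, -0.79 ± 0.22 (SE), had an adjusted p of 0.0941. Egr2, a factor of TCR-induced tolerance, had -1.28 (adjusted p = 0.134), and Irf4, a factor graded by TCR signal strength, had -0.64 (adjusted p = 0.496).

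Of 35 genes for the TCR complex and its proximal signalling proteins, 2 were positive, Tec (1.42), a Tec family kinase, and Grap2 (1.01), the adaptor Gads that joins LAT to Lcp2, and 1 was negative, Cd5 (-0.99), a receptor that dampens TCR signals. The list median was 0.23, and 0.403% of all genes were positive. Without both arrays that went against their sex label Tec stayed called, and Grap2 (adjusted p = 0.115) and Cd5 (adjusted p = 0.194) did not. Lat itself had signals of 2.32 and 2.73 in KO cells at 1 week, with replicate 2 left out as an outlier spot, and 3.16, 2.62 and 2.34 at 4 weeks. In Y136F cells it had 4.26, 4.17 and 4.32 at 1 week and 4.43, 3.86 and 3.93 at 4 weeks. All KO arrays were below all Y136F arrays at both times. KO minus Y136F was -1.73 at 1 week and -1.37 at 4 weeks, a difference of 0.36 ± 0.35 (SE, adjusted p = 0.78). The position of the Lat probe against the floxed exons was not checked here.

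The remaining lists held 1 or 2 called genes each, or none. Where genes were called they made up 4.55% to 11.1% of the list members, against 1.34% of all genes. Of 18 inhibitory receptor genes Lag3, a receptor that binds MHC class II (-3.56), and Cd5 were called, with a median of -0.68, and of 19 regulatory T cell genes Entpd1, the ectoenzyme CD39 (-2.06), with a median of -0.67. Of 22 genes for NFAT and NF-kB factors and cytokines, Csf1 and Ifng, interferon-gamma (-3.18), were called, with a median of -0.22. Among 21 glycolysis genes Tpi1, triosephosphate isomerase (-1.18), was called, and among 22 heat shock genes Dnajb4, a co-chaperone (0.86). Without both arrays that went against their sex label Csf1, Ifng and Dnajb4 stayed called. Lag3 (adjusted p = 0.0715, limma), Cd5, Entpd1 (adjusted p = 0.143) and Tpi1 (adjusted p = 0.17) did not. Of 28 alternatives Lag3 was called in 24, Cd5 in 14, Entpd1 and Tpi1 in 13 each and Dnajb4 in 15. In 4 lists limma called no gene. At an unadjusted p under 0.05, which 12.2% of all genes reached, there were 5 of 20 gamma-chain cytokine genes (median -0.17), 3 of 27 cholesterol and fatty acid genes (median -0.13), 4 of 23 unfolded protein response genes (median -0.28) and 3 of 19 BCL2 family and death receptor genes (median -0.07). In the first 3 of these lists the members with the smallest p were Socs3, a cytokine signalling inhibitor (0.67), Scd1, a fatty acid desaturase (-1.45), and Creld2, an endoplasmic reticulum protein (-1.17).

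Markers of other cells were read on the same arrays. Of 6 plasma cell markers Jchain, the joining chain of IgM and IgA (-4.06), and Mzb1 (-1.90), an endoplasmic reticulum protein of antibody-secreting cells, were called negative (against 0.94% of all genes), with a median of -0.71, and Jchain stayed called without both arrays that went against their sex label. The mean deviation of 5 plasma cell genes was 1.31, 0.65 and 0.51 in Y136F cells at 4 weeks and between -0.66 and 0.15 in the other 9 arrays. None of 14 B cell markers was called by limma, and none had an unadjusted p under 0.05; their median was -0.36, and 0.30 without the 2 arrays that went against their sex label. None of 11 myeloid markers was called (5 at an unadjusted p under 0.05, median -0.36), though 5 rose in Y136F cells (against 4.67% of all genes), among them S100a8, a neutrophil protein (change 4.29). S100a8 was well above background on only 6 of the 12 arrays, at the 7.78th percentile of expression, so the size of its change is uncertain. The mean deviation of 8 myeloid genes was 0.96, 0.36 and -0.05 in Y136F cells at 4 weeks and between -0.49 and 0.17 in the other 9 arrays, so the third of these arrays lay among the others. That of the 11 B cell genes was 0.82, 0.41 and 0.09 in Y136F cells at 4 weeks, which overlapped with KO arrays. No marker of CD8 T cells, NK cells, NKT and gamma-delta T cells or erythroid cells was called by limma; at an unadjusted p under 0.05 there were 2 of 8 NK cell markers and 0 of the others. The part of such cells in the effector, Th2, mast cell and cell cycle values was not tested.

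**Figure D4:**
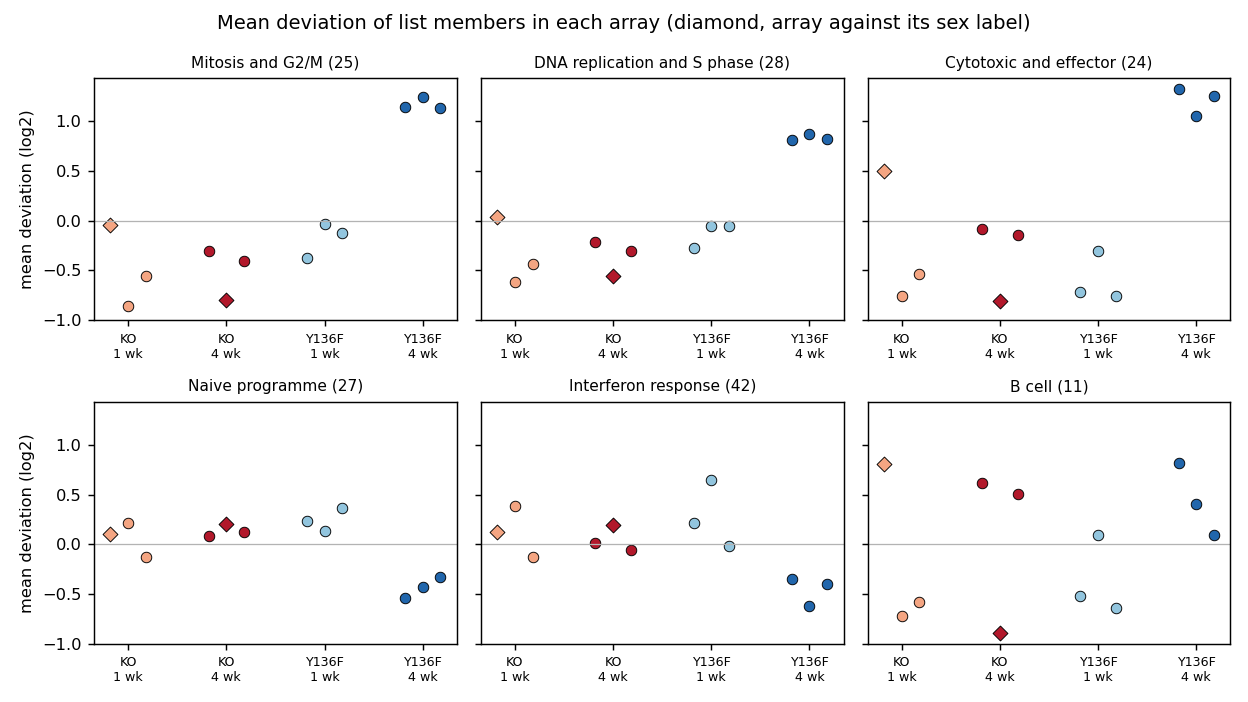
Mean deviation (log2) of the members of 6 lists from their average over the arrays, in each KO and Y136F array; diamonds mark the arrays that went against their sex label and the number of genes is in brackets. The 4-week Y136F arrays stand apart in the cell cycle, effector, naive and interferon panels, while in the B cell panel each diamond lies with the arrays of the other time.

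Both arrays that went against their sex label were KO arrays. Without them the Y136F change over time had 1901 called genes in place of 1406. The KO change over time had 14 called genes (limma, adjusted p under 0.05; 13 higher and 1 lower at 4 weeks) in place of 0, and 1454 in place of 79 at an unadjusted p under 0.05. The 13 included the B cell and antigen presentation genes Cd22, Cd74, H2-Aa, H2-Ab1 and H2-DMb2, and B cell markers had a median KO change of 0.59 in place of 0.24. That median became 0.30 in place of -0.02 for mitosis genes and 0.52 in place of 0.03 for effector genes. For activation and memory genes it became 0.54 in place of 0.10, and for interferon genes -0.21 in place of -0.09. Over all autosomal genes it was then 0.04. Penk was the only one of the 14 that was also among the 220. Of the 69 genes followed by name, all kept their sign, 36 were called with and without both arrays, 19 only with them and 14 in neither case.

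**Figure D5:**
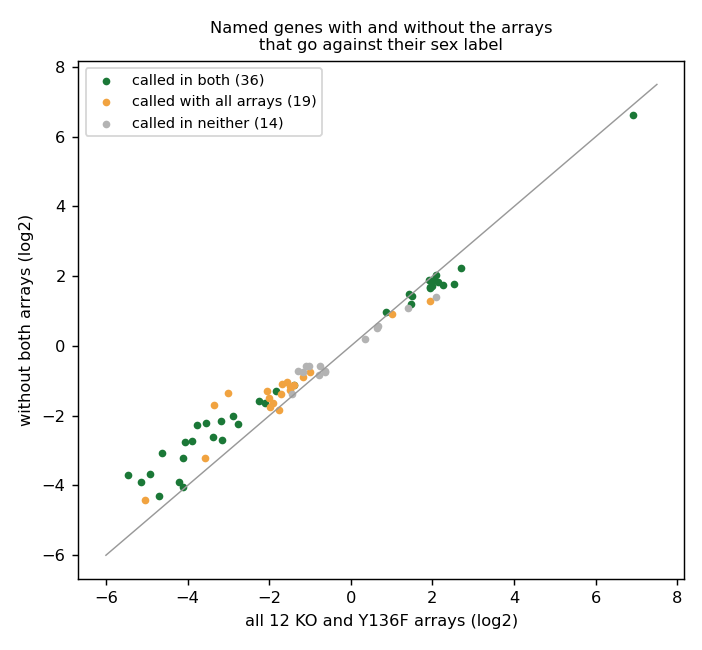
Difference of differences of the 69 named genes with all 12 KO and Y136F arrays (x axis) and without the 2 arrays that went against their sex label (y axis), both log2; the line marks equal values. All 69 keep their sign, 36 are called in both cases (green) and 19 with all arrays only (orange), and most negative genes lie above the line, nearer to 0.

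Slide was the batch that the files record, and no slide held arrays of all 4 groups, so the difference of differences has no value within a slide. Its parts could be read on single slides. For Trim12a, Y136F cells changed by -6.72 on slide 2, and KO minus Y136F at 4 weeks was 6.97 on slide 3 and 6.05 on slide 4. For Hdc the same values were 3.87, -3.28 and -3.15, and for Mki67 they were 2.42, -2.35 and -2. Only slide 2 held Y136F arrays of both times, 1 of each. With slide as a fixed term Trim12a and Hdc stayed called and Mki67 did not. Mki67 also lost its call with sex as labelled as a term. The KO changes of Mki67 on slides 1, 3 and 4 were -0.30, -0.73 and 1.14, with no common direction. Slide 1 held KO 4 weeks replicate 2 and slide 3 KO 1 week replicate 1, the arrays that went against their sex label. Slide 4 held neither. Without both arrays the KO change of Mki67 was 0.72 ± 0.23 (SE, limma, adjusted p = 0.327).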

How the data were processed

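RNA of naive CD4+ T cells was labelled with Cy3, per the labels, and measured on Agilent arrays. Feature Extraction 10.5 and limma were used by the authors, per the submitters' processing notes; the file headers give version 10.5.1.1 and an array design on build mm9. The deposited processed signal is a background-corrected intensity on a linear scale. Values in the deposited series matrix are log2, with nearly equal column medians (8.558 to 8.57) and a normalization step that is not given in the sources used here, and it served as an alternative only. The 75th percentile of the intensity was 1124 to 1896 per array, and the number of arrays limits the precision.

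The log2 intensity minus each array's 75th percentile over 43379 spots is the scaled log2 signal. Outlier spots were left out, and spots of a probe averaged. Symbols came by accession from a RefSeq table (GRCm38.p6), which named 24836 of 41174 probes; the brightest probe of a gene was used if well above background on at least 3 of 18 arrays. A gene on the X or Y chromosome (613) or an unnamed sequence (14566) stayed in the test and out of the counts. limma 3.58.1 in R 4.3.3 fitted 6 group means over 18 arrays with an intensity trend (12 residual degrees of freedom, a median of 5.43 prior ones), with two-sided tests, Benjamini-Hochberg adjustment over all 31522 features and a threshold of 0.05. The scripts were tested on simulated data.

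Genes were named by rule: the 12 largest positive and 12 largest negative called genes well above background on all 3 arrays of a group, up to 4 called genes per list (or 2 with the smallest p), and Lat, Nr4a1, Irf4, Egr2 and Trim12a; other list members were named after their values were seen. A few members that the rule names are not reported here. The members and lists were chosen with earlier results of these data known. Nothing says that the animals of a group were treated apart, so p-values measure the spread between these arrays. Alternatives covered background correction (normexp with an offset of 50 on the median signal), quantile normalization, the series matrix, outlier spots, dim probes and probe choice. They also covered a fit without the WT arrays, slide, sex as labelled, replicate number, prior variance, array weights, adjustment and left-out arrays.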

Additional observations from a re-analysis of the deposited data

Results flagged for a closer look

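The change over time differed between KO and Y136F cells, by the test of that difference, in 66 autosomal genes with a positive and 154 with a negative value. Among the sequences outside the autosomal comparison (unnamed sequences and genes on the X and Y chromosomes), 45 were called positive and 162 negative for the same contrast; sex was unevenly spread over the groups, and no value is given for single ones.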

How the results depend on the processing

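The 28 alternatives included leaving out each of the 12 arrays in turn. All 220 genes kept their sign in each of them (219 with a value where probes had to be well above background on 9 arrays). Of the 55 called genes among those named, 25 were called in all 28 alternatives, among them Trim12a, Dapl1, Igfbp4, Actn1, Ccr7, Hdc, Hrh4, Gzma, Ccl1, Lgals3, Itgb1, Nfil3 and Ccr2. No named gene reversed.

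For the difference of differences, positive and negative counts against 66 and 154 were 20 and 29 with slide as a fixed term, 38 and 99 without the intensity trend, 171 and 284 with array weights, and 34 and 52 without both arrays that went against their sex label. Single left-out arrays gave 30 to 137 positive and 56 to 284 negative genes. With only the 12 KO and Y136F arrays in the fit, 44 positive and 107 negative genes were called, 135 of them among the 220. Of the named genes, Gzmb, Anxa2, Penk, Il1rl1, Rapgef4, Ttk, Ccna2, Tk1, E2f1, Jun, Cd5, Entpd1, Tpi1 and Dnajb4 then lost their call. Rapgef4 and Il1rl1 were called in 14 of the 28 alternatives and Gzmb in 17. The Y136F count of 1406 became 354 with the slide term and 4503 with array weights, and single left-out arrays gave 697 to 1749. The KO count of 0 became 36 with array weights, 14 without both arrays, and 0 to 1 with single arrays left out. The cause was not tested. Positive genes made up 30% of the calls, 44.9% with sex as labelled as a term and 40.8% with the slide term. The term for labelled sex moved the median of all genes to -0.12. Since some arrays went against their labels, that term does not adjust for sex as the sex-linked genes show it.

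The replicate block gave 205 genes, 189 of them among the 220. Same-numbered arrays had correlations from -0.62 to 0.45, and 5 of 18 pairs were above 0.1, so the numbers do not pair the arrays. List medians kept their sign in all alternatives for 18 of 28 lists; those of the cholesterol, unfolded protein response, heat shock, BCL2, CD4, B cell, CD8, NK, NKT and erythroid lists did not.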
